A study of Mus musculus with 12 samples.

Results

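The genes described here belong to the TGF-beta, BMP and activin signalling pathways. They were measured in total RNA of 2 mouse bone cell lines on 12 single-colour spotted arrays. A gene was taken where a spot had 1 gene symbol, updated by Entrez identifier, that starts with Bmp, Gdf, Tgfb, Smad, Acvr, Inhb, Ltbp or Grem, or that is Inha, Nog, Chrd, Fst, Fstl1, Eng or Id1 to Id4. The rule found 50 genes, each with 1 spot, among 4605 genes and 5030 spots. Fst, Id1 and Id4 were not analysed here. The 50 genes fall into 9 roles: 13 BMP and GDF ligands, 6 TGF-beta ligands and latency proteins, 5 activin and inhibin subunits, 4 antagonists, 2 co-receptors, 8 type I and type II receptors, 7 Smads, 2 Id genes and 3 further genes with a TGF-beta or BMP name.

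The study compared an osteocyte line with an osteoblast line, and 2 culture states within each line. MLO-Y4 is the osteocyte line. Its source mouse carried T antigen behind the osteocalcin promoter, and its groups are called MLO-Y4 high and MLO-Y4 low. 2T3 is the osteoblast line. Its source mouse carried SV-40 T antigen behind the BMP-2 promoter, and its groups are called 2T3 C0 and 2T3 low. Per the labels, the MLO-Y4 groups contrast osteocytes with and without gap junctions, and the 2T3 groups contrast confluent with sparse osteoblasts. The reading of high as having gap junctions and of C0 as confluent rests on nothing more than the name low of each partner group. Each group had 3 arrays. They are numbered 1 to 3, and no label says if the numbers stand for cultures grown apart. P-values here therefore describe the variation among arrays, which could be purely technical. Each cell type was represented by 1 line, so cell type, line and source mouse cannot be told apart.

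Ligands of this family are secreted dimers that bind pairs of type I and type II serine/threonine kinase receptors, often with the help of a co-receptor. TGF-beta and activin receptors phosphorylate Smad2 and Smad3, BMP receptors phosphorylate Smad1 and Smad5, and each kind enters the nucleus with Smad4. Secreted antagonists hold BMPs or activins away from the receptors, latent TGF-beta binding proteins tether TGF-beta in the matrix, and Smad6 and Smad7 are inhibitory Smads that the pathway induces. In bone, BMPs drive osteoblast differentiation and TGF-beta is stored in the mineralised matrix.

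The promoters of 3 genes that passed the threshold used below between the lines are printed here, because the Smads read short DNA words. Grem1 and Eng were far higher in MLO-Y4, and Id3 was the gene that was lower. Id3 values overlapped between the lines, and its call was lost in 11 of 12 fits that left out 1 array. Each run is the 250 bases before the gene start in RefSeq, build GRCm38.p6, written 5′ to 3′ on the gene's strand. Capitals mark CAGAC or its complement GTCTG, the core of the Smad binding element, and GGCGCC, a GC-rich word that BMP-activated Smads bind.
Grem1: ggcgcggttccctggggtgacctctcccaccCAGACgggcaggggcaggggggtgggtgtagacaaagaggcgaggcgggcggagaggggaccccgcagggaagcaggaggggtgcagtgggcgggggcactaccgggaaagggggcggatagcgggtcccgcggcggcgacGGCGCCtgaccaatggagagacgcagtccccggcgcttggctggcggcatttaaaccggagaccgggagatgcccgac
Eng: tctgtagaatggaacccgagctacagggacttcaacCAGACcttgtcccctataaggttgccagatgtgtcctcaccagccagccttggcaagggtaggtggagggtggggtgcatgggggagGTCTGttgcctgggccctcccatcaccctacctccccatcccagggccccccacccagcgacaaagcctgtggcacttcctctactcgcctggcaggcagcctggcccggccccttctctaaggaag
Id3: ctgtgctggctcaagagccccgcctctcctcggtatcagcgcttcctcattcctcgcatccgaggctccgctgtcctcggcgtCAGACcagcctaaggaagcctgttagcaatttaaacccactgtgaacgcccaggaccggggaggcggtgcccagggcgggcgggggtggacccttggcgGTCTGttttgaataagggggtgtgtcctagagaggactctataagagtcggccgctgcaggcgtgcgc
The Grem1 window is chr2:113758649-113758898 on the minus strand, with 1 CAGAC match and 1 GGCGCC match. The Eng window is chr2:32646345-32646594 on the plus strand, with 2 matches of CAGAC or GTCTG. The Id3 window is chr4:136143572-136143821 on the plus strand, also with 2 such matches. Matches of the words do not overlap each other in these windows. RefSeq promoters were matched for 36 of the 50 genes, with 42 promoters in all. CAGAC, searched on both strands, lay in 23 of these 42 promoters, against 42.2% of 32851 promoters of the same length. GGCGCC lay in 7 of 42, against 9.59%, and TATAAA, the TATA word, in 4 of 42, against 12.4%. A match is only a description of these letters.

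The deposited values are linear spot intensities from which a background had been subtracted. Array medians ran from 4 to 55 and array means from 42.2, on 2T3 low replicate 3, to 334.1, on 2T3 C0 replicate 3. Arrays were quantile normalized, so that all 12 had the same distribution of values. Values under the 25th percentile of all normalized values were set to that floor, 6.08, and log2 was taken. Levels below are normalized intensities, and group means are geometric. An array's detection limit was the size of its lowest deposited value. It was lowest, at 3, on 2T3 low replicate 3, where the array median was 4. Deposited values on that array were 5 for Tgfb1 and Tgfbr3, 7 for Eng and 17 for Grem1, while Tgfb3 had 516. The normalized levels of such dim genes there rest on small integers, even where they exceed the limit. The share of spots above the limit was lowest on MLO-Y4 high replicate 1 (37.9%) and MLO-Y4 low replicate 1 (38.1%) and reached 74.8% on 2T3 low replicate 1. The arrays numbered 1 stand apart in other ways described further on, and values without the 4 arrays of that number are given beside the genes whose call or size they move. The marker lists were chosen with earlier results of these data known, so their counts are no separate evidence of cell identity. Of 6 measured osteocyte markers 5 were higher in MLO-Y4 at the threshold used below, against 5.83% of all spots, and Phex was above the limit on none of the 12 arrays. Of 8 measured osteoblast markers, 2 (Msx2 and Col1a2) were lower in MLO-Y4, against 3.48% of all spots, and 0 were higher. The osteoblast markers were not uniform in direction: Dlx3 averaged 980 in MLO-Y4 and 171 in 2T3 (log2 2.52, limma adjusted p = 0.0926), and Alpl averaged 266 in MLO-Y4 and 63.1 in 2T3 (log2 2.08, limma adjusted p = 0.111).

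**Figure D1:**
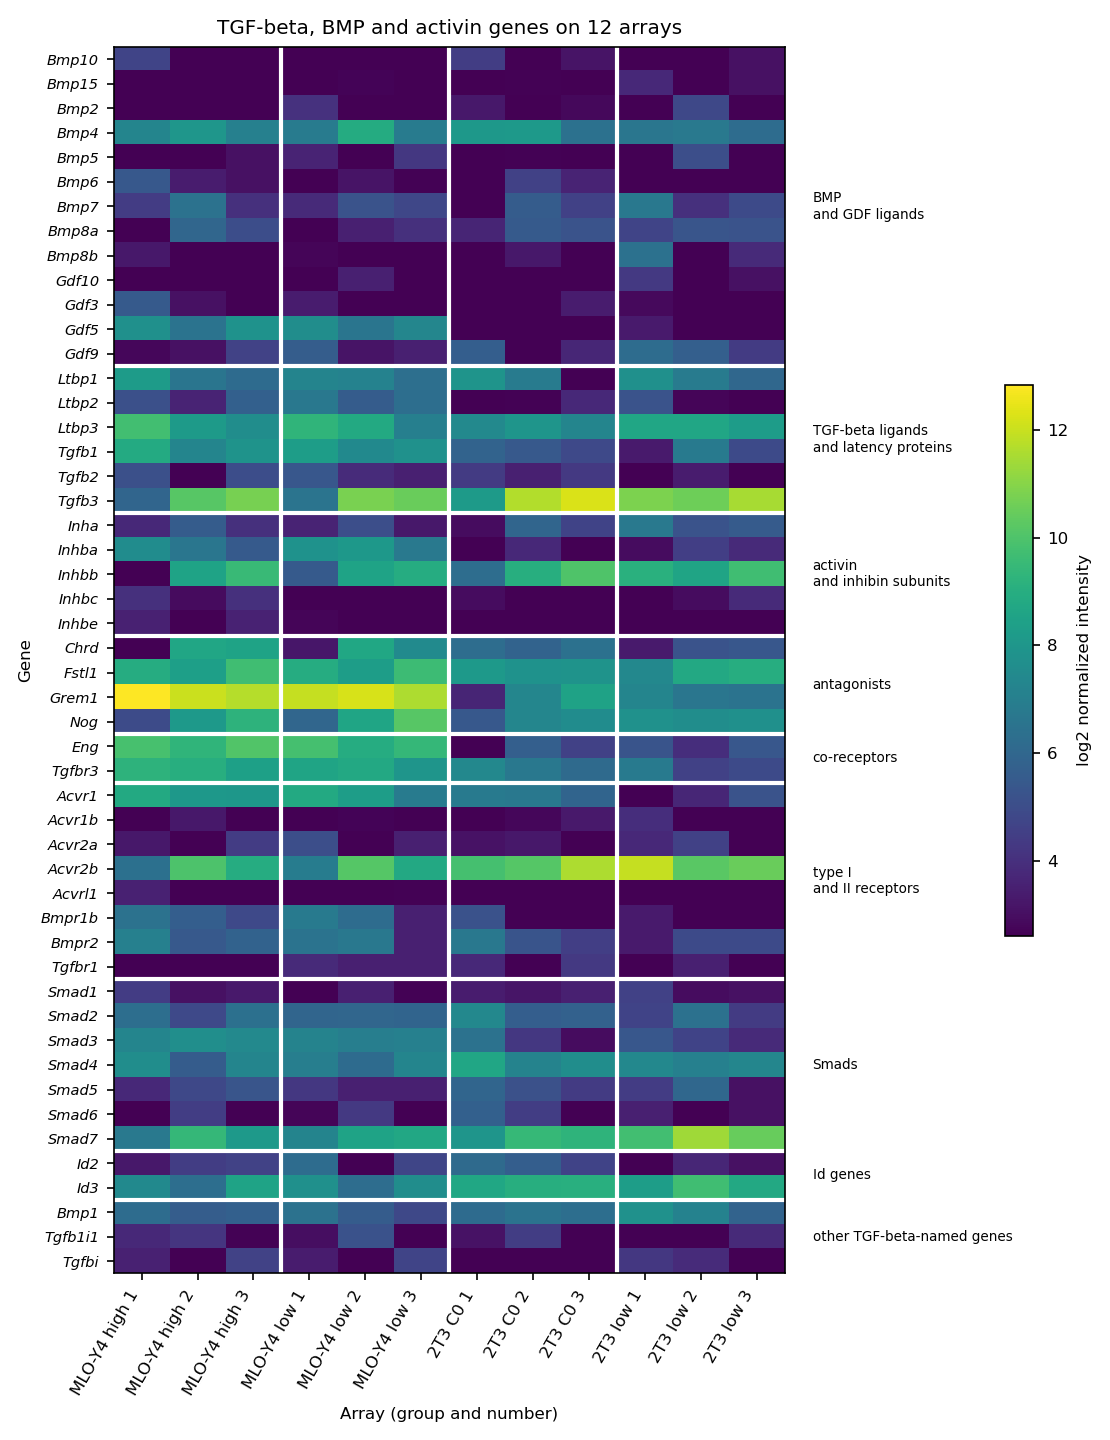
Log2 normalized intensity (colour) of the 50 TGF-beta, BMP and activin genes (rows, grouped by role) on the 12 arrays (columns, MLO-Y4 high, MLO-Y4 low, 2T3 C0 and 2T3 low, numbers 1 to 3). The Grem1, Eng and Gdf5 rows are each brighter in all 6 MLO-Y4 columns than in any 2T3 column. Many BMP and GDF rows are dark in every column.

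Many of the genes were at or near background. By the limit rule, 12 of the 50 were above it on all 12 arrays and 3 (Inhbc, Inhbe and Acvrl1) on none. In all, 31 genes (62.0%) exceeded the limit in all arrays of at least 1 group, close to the 59.4% of all spots. The other 19 were Bmp2, Bmp5, Bmp6, Bmp8b, Bmp10, Bmp15, Gdf3, Gdf9, Gdf10, Inhbc, Inhbe, Acvr1b, Acvr2a, Acvrl1, Tgfbr1, Smad1, Smad6, Tgfb1i1 and Tgfbi. For these 19, a difference between groups was hardly detectable at this signal.

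The comparison of the lines asked which pathway genes set the osteocyte line apart from the osteoblast line over both culture states. The BMP antagonist gene Grem1 was 42.6-fold higher in MLO-Y4, the co-receptor gene Eng 31.6-fold, the ligand gene Gdf5 23.2-fold and the activin subunit gene Inhba 12.8-fold. Acvr1, Tgfb1, Smad3, Tgfbr3, Bmpr1b and Ltbp2 were also higher, and Id3 was lower. The test was limma's moderated test over all 12 arrays (6 against 6 here), two-sided, with Benjamini-Hochberg adjustment over the 5030 spots and a threshold of 0.05. With it, 10 of the 50 genes were higher in MLO-Y4, against 5.83% of all spots, and 1 was lower, against 3.48%. All 6 MLO-Y4 arrays lay above all 6 2T3 arrays for 8 of the 50 genes, against 4.10% of spots, and below them for 0, against 1.75%. An unadjusted p under 0.05 was reached by 15 genes, against 21.1% of spots. The median log2 difference of the 50 genes was 0.19, against -0.03 for all spots, and 30 of the 50 were positive.

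**Figure D2:**
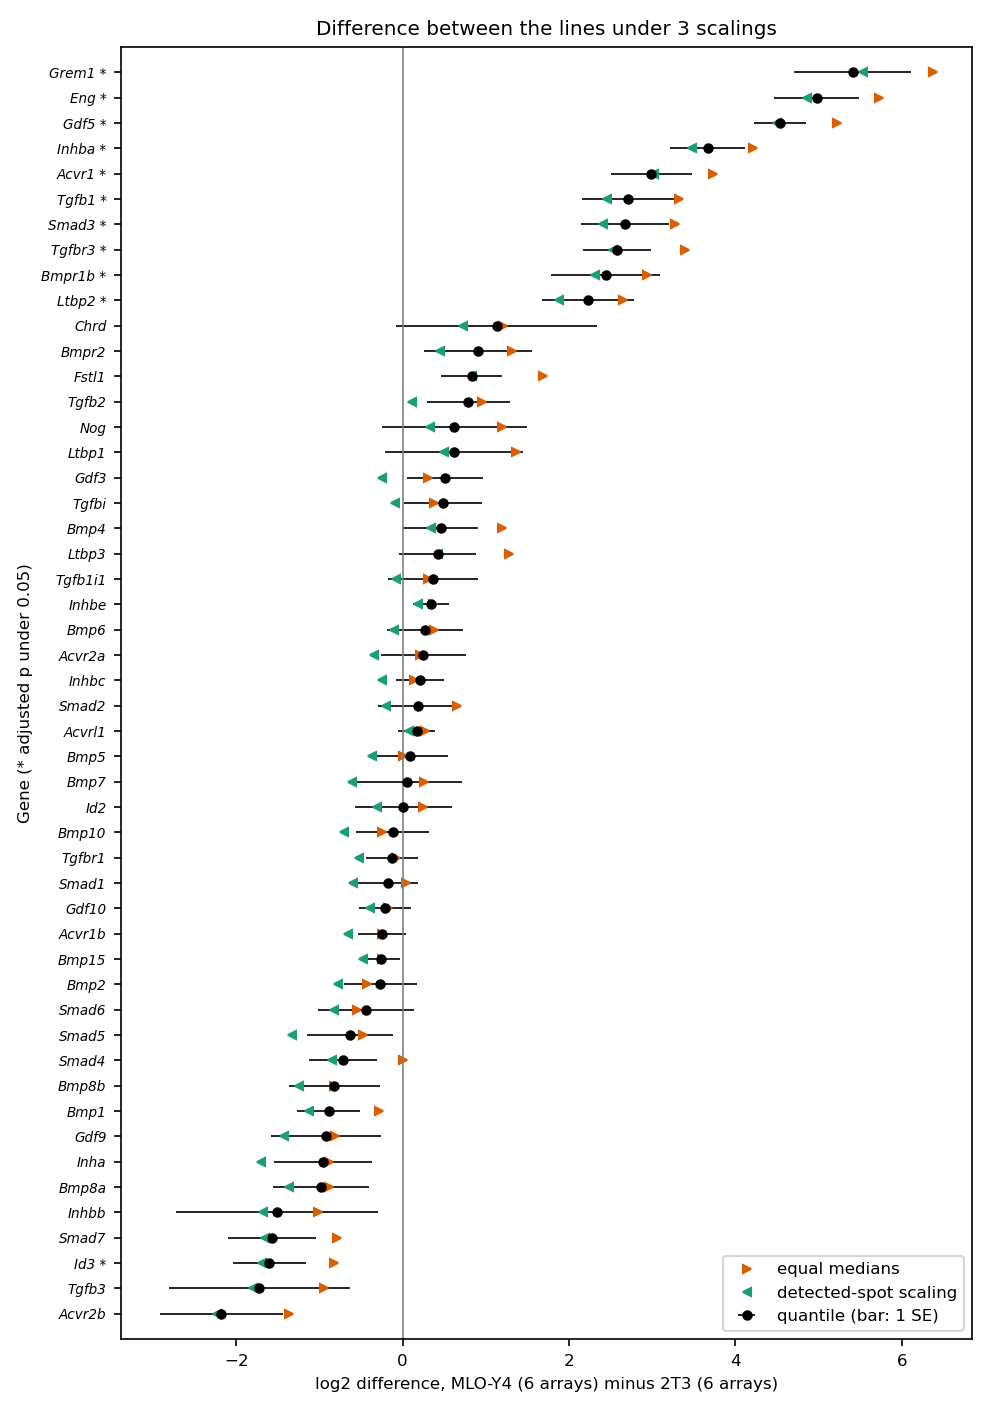
Log2 difference, MLO-Y4 minus 2T3 (x axis), for each of the 50 genes (y axis, ordered by the difference), with 6 arrays a line. Black points with bars of 1 SE are the quantile-normalized fit, coloured marks are the 2 other scalings, and stars mark adjusted p under 0.05. The 10 higher genes lie between 2.23 and 5.41 and stay right of 0 under each scaling, and Id3 stays left of 0.

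The balance of calls over all spots depended on the scaling. Quantile normalization gave 293 spots higher and 175 lower in MLO-Y4, equal array medians 414 and 94, and scaling on the spots above the limit on every array 240 and 308. Over the spots above the limit on all arrays, the median difference was 0.04 under quantile normalization, 0.79 under equal medians and -0.07 under detected-spot scaling. Among the 50 genes these 3 scalings gave 10 higher and 1 lower, 11 higher and 0 lower, and 8 higher and 1 lower. No gene named as called in this comparison changed sign under any of the alternatives. Equal medians raised several folds by over 1.5 times, to 83.5 for Grem1, 53.0 for Eng, 37.3 for Gdf5, 13.3 for Acvr1, 10.5 for Tgfbr3, 9.96 for Tgfb1 and 9.64 for Smad3.

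Among the 13 BMP and GDF ligands, 1 was higher in MLO-Y4 and 0 lower. Gdf5, a ligand known from joint and cartilage development, measured 217, 91.1 and 224 on the MLO-Y4 high arrays, 198, 96.1 and 157 on MLO-Y4 low, the floor of 6.08 on all 3 2T3 C0 arrays, and 10.1, 6.08 and 6.08 on 2T3 low. It exceeded the limit in 6 of 6 MLO-Y4 arrays and on 1 of 6 2T3 arrays, and the lines did not overlap. The mean was 154 in MLO-Y4 (SD 0.58 log2 units, n = 6) and 6.62 in 2T3 (SD 0.30, n = 6). The log2 difference was 4.54 (SE 0.31, limma adjusted p = 1.34e-05). Since the 2T3 values sit at the floor, the fold depends on it. It was 10.9 with the floor at the 40th percentile and 9.22 with an offset of 16 added in place of a floor.

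Bmp4, a ligand that osteoblasts use and respond to, exceeded the limit in all 12 arrays. It measured 153, 256 and 135 on MLO-Y4 high, 116, 480 and 117 on MLO-Y4 low, 269, 277 and 85.2 on 2T3 C0, and 99.1, 108 and 75.2 on 2T3 low. The lines overlapped, and the log2 difference was 0.46 (SE 0.45, limma adjusted p = 0.645). Bmp2, the ligand whose promoter drives the 2T3 transgene, exceeded the limit in 1 of 12 arrays, 2T3 low replicate 2. It measured 6.08 on all 3 MLO-Y4 high arrays, 16.6, 6.08 and 6.08 on MLO-Y4 low, 9.50, 6.08 and 7.0 on 2T3 C0, and 6.08, 28.5 and 6.08 on 2T3 low. Its level can therefore not be compared between these groups. Bmp8a exceeded the limit in 3 of 6 MLO-Y4 arrays and on 6 of 6 2T3 arrays. It measured 6.08, 63.9 and 32.1 on MLO-Y4 high, 6.08, 11.3 and 16.1 on MLO-Y4 low, 12.6, 45.2 and 37.2 on 2T3 C0, and 26.1, 39.8 and 37.2 on 2T3 low. The lines overlapped, and the log2 difference was -0.98 (SE 0.58, limma adjusted p = 0.393). Bmp7, a ligand of kidney and bone development, averaged 27.7 in MLO-Y4 and 26.7 in 2T3, with a log2 difference of 0.05 (SE 0.67). The other 8 ligands (Bmp5, Bmp6, Bmp8b, Bmp10, Bmp15, Gdf3, Gdf9 and Gdf10) are among the genes above the limit in no whole group.

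Of the 6 TGF-beta ligands and latency proteins, Tgfb1 and Ltbp2 were higher in MLO-Y4 and 0 were lower. Tgfb1, the form of TGF-beta most abundant in bone matrix, measured 466, 154 and 233 on MLO-Y4 high, 320, 175 and 218 on MLO-Y4 low, 57.8, 44.5 and 29.5 on 2T3 C0, and 10.1, 112 and 30.3 on 2T3 low. The lines did not overlap: the lowest MLO-Y4 array had 154 and the highest 2T3 array 112. The mean was 243 in MLO-Y4 (SD 0.59 log2 units, n = 6) and 37.1 in 2T3 (SD 1.16, n = 6), a 6.55-fold difference (log2 2.71, SE 0.55, limma adjusted p = 0.0114). Without the 4 arrays numbered 1 it was 4.09-fold, with limma adjusted p = 0.0701.

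Ltbp2, a matrix protein of the latent TGF-beta binding family, measured 34.6, 12.2 and 53.0 on MLO-Y4 high, 103, 48.4 and 78.1 on MLO-Y4 low, 6.08, 6.33 and 13.8 on 2T3 C0, and 37.8, 6.67 and 6.08 on 2T3 low. It exceeded the limit in 5 of 6 MLO-Y4 arrays and on 2 of 6 2T3 arrays. The arrays 2T3 low replicate 1 and 2T3 C0 replicate 3 reached into the MLO-Y4 range. The difference was 4.69-fold (log2 2.23, SE 0.55, limma adjusted p = 0.0301). This call was lost in 8 of the 12 fits that left out 1 array, with adjusted p up to 0.0744, and it was kept without 2T3 C0 replicate 3 (0.0395), 2T3 low replicate 1 (0.00687, 7.42-fold), MLO-Y4 low replicate 2 (0.046) and MLO-Y4 high replicate 2 (0.0192). Adjusted p was also above the threshold with detected-spot scaling (0.147), the floor at the 40th percentile (0.0509, 2.80-fold) and without the 4 arrays numbered 1 (0.0859, 5.5-fold). With an offset in place of the floor the fold was 2.56.

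Tgfb3, the form prominent in developing skeletal and palate tissue, measured 61.0, 1164 and 1707 on MLO-Y4 high, 94.2, 1748 and 1454 on MLO-Y4 low, 290, 3227 and 4916 on 2T3 C0, and 1815, 1529 and 2865 on 2T3 low. The array numbered 1 was far below the other 2 in MLO-Y4 high, MLO-Y4 low and 2T3 C0. The SE of the line difference was wide (log2 -1.72, SE 1.09, limma adjusted p = 0.436). It was -0.93 without the 4 arrays numbered 1 (SE 0.28, adjusted p = 0.139). Tgfb2 averaged 19.0 in MLO-Y4 and 11.0 in 2T3 (log2 0.79, SE 0.50) and exceeded the limit in 5 of 12 arrays. Ltbp1 averaged 124 in MLO-Y4 and 80.5 in 2T3 (log2 0.62, SE 0.83). Ltbp3 averaged 350 in MLO-Y4 and 262 in 2T3 (log2 0.42, SE 0.46). Neither of these 2 differences passed.

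Of the 5 activin and inhibin subunits, 1 was higher in MLO-Y4 and 0 were lower. Inhba, which encodes the subunit of activin A, measured 190, 98.9 and 45.6 on MLO-Y4 high, 224, 265 and 107 on MLO-Y4 low, 6.08, 13.8 and 6.08 on 2T3 C0, and 7.75, 22.6 and 14.1 on 2T3 low. The lowest MLO-Y4 array lay above the highest 2T3 array, and in 2T3 the gene exceeded the limit in 3 of 6 arrays. The mean was 132 in MLO-Y4 (SD 0.95 log2 units, n = 6) and 10.4 in 2T3 (SD 0.77, n = 6). The log2 difference was 3.67 (SE 0.45, limma adjusted p = 0.000701), and the fold was 5.81 with an offset in place of the floor.

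Inha, which encodes the inhibin alpha subunit, measured 13.8, 48.5 and 16.3 on MLO-Y4 high, 12.2, 33.8 and 9.50 on MLO-Y4 low, 7.75, 61.3 and 25.3 on 2T3 C0, and 108, 37.2 and 47.2 on 2T3 low. It exceeded the limit in 2 of 6 MLO-Y4 and 5 of 6 2T3 arrays, the lines overlapped, and the log2 difference was -0.96 (SE 0.59, limma adjusted p = 0.412). Inhbb, which encodes the subunit of activin B, measured 6.08, 373 and 743 on MLO-Y4 high, 45.1, 370 and 491 on MLO-Y4 low, 77.2, 520 and 1033 on 2T3 C0, and 553, 383 and 833 on 2T3 low. As with Tgfb3, the array numbered 1 was far below its group in MLO-Y4 high, MLO-Y4 low and 2T3 C0 (line difference -1.51 on the log2 scale, SE 1.21, limma adjusted p = 0.559). The Inhbb difference was -0.43 without the 4 arrays numbered 1 (SE 0.41, adjusted p = 0.624). Inhbc and Inhbe, the liver-expressed beta subunits, exceeded the limit in 0 of 12 arrays.

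Of the 4 antagonists, 1, Grem1, was higher in MLO-Y4 at the threshold and 0 were lower. Grem1, a secreted protein that binds and blocks BMPs, measured 7350, 4158 and 3377 on MLO-Y4 high, 3988, 4756 and 3036 on MLO-Y4 low, 12.6, 157 and 365 on 2T3 C0, and 155, 99.2 and 90.0 on 2T3 low. The lowest MLO-Y4 array (3036) lay above the highest 2T3 array (365), and every array exceeded the limit. The mean was 4256 in MLO-Y4 (SD 0.45 log2 units, n = 6) and 100 in 2T3 (SD 1.63, n = 6), with a log2 difference of 5.41 (SE 0.70, limma adjusted p = 0.000923). The size leaned on 2T3 C0 replicate 1, the array at 12.6: without it the fold was 25.8, and without all 4 arrays numbered 1 it was 23.9. In RNA from whole cultures, a difference in the share of cells that express a gene and a difference in RNA per cell cannot be told apart.

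Fstl1, a secreted follistatin-like glycoprotein, exceeded the limit in all 12 arrays. It measured 498, 334 and 844 on MLO-Y4 high, 493, 319 and 793 on MLO-Y4 low, 274, 229 and 230 on 2T3 C0, and 169, 446 and 512 on 2T3 low. The lines overlapped through 2T3 low, and the 1.78-fold difference did not pass (log2 0.83, SE 0.37, limma adjusted p = 0.234). With equal medians it passed, at a log2 difference of 1.69 and adjusted p = 0.0486. Nog, which encodes the BMP antagonist noggin, measured 30.8, 283 and 606 on MLO-Y4 high, 63.9, 399 and 1174 on MLO-Y4 low, 42.4, 160 and 192 on 2T3 C0, and 222, 195 and 213 on 2T3 low. The spread within MLO-Y4 exceeded the difference between the lines (log2 0.62, SE 0.87, limma adjusted p = 0.764). The Nog difference was 1.47 without the 4 arrays numbered 1 (SE 0.43, adjusted p = 0.129). Chrd, which encodes the BMP antagonist chordin, measured 6.08, 408 and 373 on MLO-Y4 high, 9.33, 422 and 180 on MLO-Y4 low, 77.2, 57.5 and 86.0 on 2T3 C0, and 10.1, 37.2 and 42.2 on 2T3 low. MLO-Y4 arrays numbered 2 and 3 lay above every 2T3 array, while those numbered 1 were at or near the floor. Over all arrays the log2 difference was 1.13 (SE 1.21, limma adjusted p = 0.684), and without the 4 arrays numbered 1 it was 2.63 (adjusted p = 0.0165).

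Both co-receptors were higher in MLO-Y4 without overlap. Eng, which encodes endoglin, an accessory receptor for TGF-beta and BMP ligands, measured 927, 626 and 1063 on MLO-Y4 high, 896, 491 and 696 on MLO-Y4 low, 6.08, 52.2 and 23.8 on 2T3 C0, and 38.0, 15.5 and 42.2 on 2T3 low. The mean was 757 in MLO-Y4 (SD 0.42 log2 units, n = 6) and 23.9 in 2T3 (SD 1.16, n = 6), a log2 difference of 4.98 (SE 0.51, limma adjusted p = 0.000191). With an offset in place of the floor the fold was 18.4. Endoglin is best known from endothelial cells, so endothelial markers were read beside it. Of 8 measured of 12 listed, 0 passed in this comparison. Their summed level ran from 245 to 268 on MLO-Y4 high, 79.0 to 265 on MLO-Y4 low, 156 to 266 on 2T3 C0 and 227 to 293 on 2T3 low. These markers were not all at background. Tie1 exceeded the limit in 4 of 6 MLO-Y4 arrays (up to 149) and 5 of 6 2T3 arrays (up to 202), Cldn5 in 4 of 6 MLO-Y4 and 4 of 6 2T3 arrays, Kdr in 3 of 6 MLO-Y4 and 6 of 6 2T3 arrays, and Pecam1 in 2 of 6 MLO-Y4 and 4 of 6 2T3 arrays. Cdh5, Emcn, Tek and Flt1 exceeded it in 0 of 6 MLO-Y4 arrays. In 2T3, Tek exceeded it in 2 of 6 arrays, Cdh5 and Emcn in 1 of 6 each and Flt1 in 0 of 6. Their part in the Eng difference was not tested.

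Tgfbr3, which encodes betaglycan, the co-receptor that presents TGF-beta and binds inhibin, measured 604, 520 and 345 on MLO-Y4 high, 388, 440 and 244 on MLO-Y4 low, 168, 103 and 70.2 on 2T3 C0, and 111, 24.1 and 30.3 on 2T3 low. Every array was above the limit, and the lowest MLO-Y4 array (244) lay above the highest 2T3 array (168). The mean was 407 in MLO-Y4 (SD 0.46 log2 units, n = 6) and 67.9 in 2T3 (SD 1.11, n = 6), a 5.98-fold difference (log2 2.58, SE 0.41, limma adjusted p = 0.00328).

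**Figure D3:**
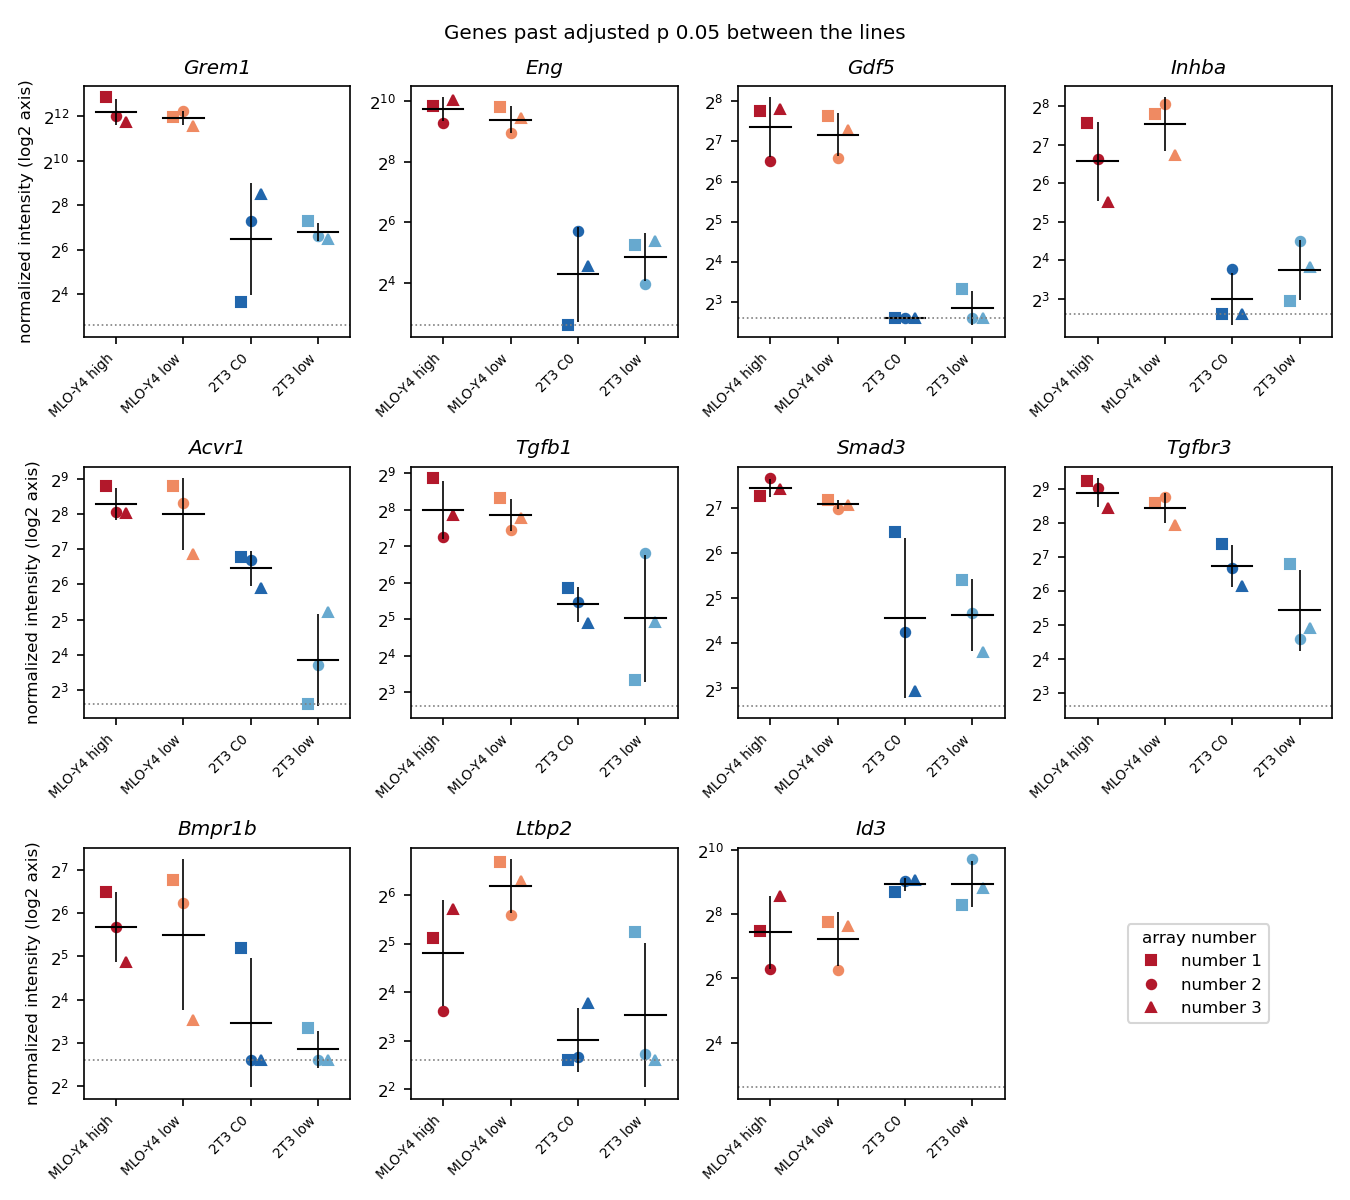
Normalized intensity (log2 axis) of the 11 genes past adjusted p 0.05 between the lines, for MLO-Y4 high, MLO-Y4 low, 2T3 C0 and 2T3 low. Points are arrays shaped by their number, horizontal lines are geometric means, vertical bars are 1 SD of log2 values (n = 3), and the dotted line is the floor at 6.08. Grem1 lies from 3036 to 7350 in MLO-Y4 and from 12.6 to 365 in 2T3, and Id3 is the gene with the higher mean in 2T3.

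Among the 8 type I and type II receptors, Acvr1 and Bmpr1b were higher in MLO-Y4 and 0 were lower. Acvr1, a type I receptor for BMPs, measured 448, 264 and 259 on MLO-Y4 high, 448, 320 and 116 on MLO-Y4 low, 109, 104 and 59.2 on 2T3 C0, and 6.08, 13.2 and 37.2 on 2T3 low. The order of the 4 groups was MLO-Y4 high (mean 313), MLO-Y4 low (255), 2T3 C0 (87.7) and 2T3 low (14.4), with no overlap between the lines. The line difference was 7.96-fold (log2 2.99, SE 0.49, limma adjusted p = 0.00365). Without the 4 arrays numbered 1 it was 2.44 on the log2 scale with adjusted p = 0.0632.

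Bmpr1b, a type I BMP receptor of the skeleton, measured 89.5, 51.3 and 29.3 on MLO-Y4 high, 109, 75.1 and 11.5 on MLO-Y4 low, 36.6, 6.08 and 6.08 on 2T3 C0, and 10.1, 6.08 and 6.08 on 2T3 low. It exceeded the limit in 5 of 6 MLO-Y4 arrays and 2 of 6 2T3 arrays, and the array 2T3 C0 replicate 1 overlapped MLO-Y4. The difference was 5.42-fold (log2 2.44, SE 0.66, limma adjusted p = 0.0446). In 10 of 12 fits that left out 1 array the call was lost, with adjusted p up to 0.108. It was kept without 2T3 C0 replicate 1 (0.0203) and without MLO-Y4 low replicate 3 (0.0121), and the fold was 2.90 with an offset in place of the floor. Detected-spot scaling (0.0637), the floor at the 40th percentile (0.13, 3.03-fold), leaving out the 4 arrays numbered 1 (0.0993, 5.83-fold) and removing the surface trend (0.0553) also ended the call.

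Acvr2b, a type II receptor for activins and related ligands, measured 83.2, 1019 and 499 on MLO-Y4 high, 120, 1133 and 439 on MLO-Y4 low, 913, 1121 and 3098 on 2T3 C0, and 3948, 1187 and 1454 on 2T3 low. MLO-Y4 arrays numbered 1 and 3 lay below all 2T3 arrays, and those numbered 2 lay within the 2T3 range. The difference did not pass (log2 -2.18, SE 0.74, limma adjusted p = 0.111). It was -1.11 without the 4 arrays numbered 1 (SE 0.51, adjusted p = 0.29). Bmpr2, the main type II BMP receptor, averaged 57.9 in MLO-Y4 and 30.7 in 2T3 (log2 0.91, SE 0.65, limma adjusted p = 0.494). Tgfbr1, Acvr1b, Acvr2a and Acvrl1 were above the limit in no whole group, so Tgfbr1 and Acvr1b, type I receptors that act on Smad2 and Smad3, could not be compared between the lines.

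Of the 7 Smads, 1 was higher and 0 were lower. Smad3, which carries the TGF-beta and activin signal, measured 153, 202 and 172 on MLO-Y4 high, 145, 127 and 135 on MLO-Y4 low, 88.9, 19.2 and 7.75 on 2T3 C0, and 42.1, 25.7 and 14.1 on 2T3 low. The MLO-Y4 arrays lay within a narrow range from 127 to 202, above every 2T3 array. The mean was 154 in MLO-Y4 (SD 0.24 log2 units, n = 6) and 24.2 in 2T3 (SD 1.23, n = 6), a 6.36-fold difference (log2 2.67, SE 0.53, limma adjusted p = 0.0108). The fold was 10.7 without the 4 arrays numbered 1 and 3.95 with an offset in place of the floor.

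Smad2, which carries the same signal, averaged 59.6 in MLO-Y4 and 52.8 in 2T3 (log2 0.18, SE 0.47, limma adjusted p = 0.887). Smad4, the shared partner, averaged 113 in MLO-Y4 and 186 in 2T3 (log2 -0.72, SE 0.41, limma adjusted p = 0.375). Smad5, a BMP Smad, averaged 18.4 in MLO-Y4 and 28.5 in 2T3 (log2 -0.63, SE 0.52). None of these differences passed, and Smad1 and Smad6 were near background. Smad7, the inhibitory Smad of TGF-beta receptors, exceeded the limit in all 12 arrays and measured 107, 696 and 279 on MLO-Y4 high, 151, 377 and 430 on MLO-Y4 low, 245, 712 and 613 on 2T3 C0, and 866, 2649 and 1421 on 2T3 low. The 2T3 low arrays lay above all 9 others, and 2T3 C0 overlapped MLO-Y4. The line difference did not pass without a block (log2 -1.57, SE 0.53, limma adjusted p = 0.11). With the array number as a block it passed, with Smad7 lower in MLO-Y4 (SE 0.26, limma adjusted p = 0.00693). That block fits the same number effect in every group, although 2T3 low arrays were not taken as paired by number. Leaving out the 4 arrays numbered 1 gave -1.39 (SE 0.37, adjusted p = 0.0992).

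Of the 2 Id genes, Id3 was lower in MLO-Y4. Id genes encode helix-loop-helix proteins without a DNA-binding part and are classic targets of BMP signalling. Id3 measured 176, 78.2 and 374 on MLO-Y4 high, 217, 76.4 and 198 on MLO-Y4 low, 415, 517 and 532 on 2T3 C0, and 314, 832 and 446 on 2T3 low. The array MLO-Y4 high replicate 3 overlapped 2T3. The mean was 160 in MLO-Y4 (SD 0.90 log2 units, n = 6) and 487 in 2T3 (SD 0.47, n = 6), so Id3 was 3.04-fold lower in MLO-Y4 (log2 -1.60, SE 0.44, limma adjusted p = 0.0488). This call was close to the threshold. It was lost in 11 of 12 fits that left out 1 array, with adjusted p up to 0.109, and kept without MLO-Y4 high replicate 3 (0.0228). Under equal medians the log2 difference was -0.83 (adjusted p = 0.423). The call also ended with the floor at the 40th percentile (0.0628), without the 4 arrays numbered 1 (0.156) and with the array number as a block (0.053). Id2 measured 9.58, 22.2 and 24.8 on MLO-Y4 high, 74.0, 6.08 and 26.7 on MLO-Y4 low, 71.0, 51.4 and 25.3 on 2T3 C0, and 6.08, 13.2 and 8.25 on 2T3 low. The lines overlapped widely, with a log2 difference of 0.01 (SE 0.58).

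Bmp1, Tgfbi and Tgfb1i1 carry family names but are not ligands. Bmp1, a metalloproteinase that processes procollagen, measured 75.4, 49.2 and 53.0 on MLO-Y4 high, 87.9, 48.4 and 28.3 on MLO-Y4 low, 72.9, 89.8 and 79.7 on 2T3 C0, and 220, 140 and 58.9 on 2T3 low. The lines overlapped, and the 1.85-fold difference did not pass (log2 -0.89, SE 0.38, limma adjusted p = 0.211). Tgfbi, a TGF-beta-induced matrix protein, measured 11.8, 6.08 and 24.8 on MLO-Y4 high, 10.4, 6.08 and 26.0 on MLO-Y4 low, 6.08 on all 3 2T3 C0 arrays, and 19.4, 14.7 and 6.08 on 2T3 low. It exceeded the limit in 2 of 6 arrays of each line (log2 0.49, SE 0.47, limma adjusted p = 0.64). Tgfb1i1, a LIM adaptor, exceeded it in 3 of 12.

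The lines were also compared state by state, which asked whether the line difference was present at low density and at the denser state taken alone. MLO-Y4 low was set against 2T3 low, and MLO-Y4 high against 2T3 C0, with 3 arrays a group. These comparisons share their arrays with the comparison over both states and are no separate evidence for it. Over all spots the split of calls again moved with the scaling. Low density gave 144 higher and 54 lower with quantile normalization, 162 and 26 with equal medians, and 113 and 88 with detected-spot scaling. The denser state gave 116 and 53, 116 and 23, and 100 and 91. At low density, Gdf5, Eng, Acvr1, Inhba, Grem1 and Tgfbr3 were higher in MLO-Y4, 6 of the 50 genes, against 2.86% of all spots. No gene was lower, against 1.07%. The log2 differences were 4.32 for Gdf5 (SE 0.43, limma adjusted p = 0.000335), 4.53 for Eng (SE 0.71, 0.00684), 4.15 for Acvr1 (SE 0.69, 0.00939), 3.77 for Inhba (SE 0.63, 0.00954), 5.11 for Grem1 (SE 0.99, 0.0178) and 3.00 for Tgfbr3 (SE 0.59, 0.0182). The low-density groups did not overlap, with MLO-Y4 higher, for 12 genes, against 10.4% of spots, and with MLO-Y4 lower for 5, against 8.49%.

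The Grem1 call at low density was lost whenever 1 of the 6 low-density arrays was left out, with adjusted p between 0.0521 and 0.0701. Tgfbr3 was lost without 2T3 low replicate 2 (0.063), 2T3 low replicate 3 (0.0766), MLO-Y4 low replicate 1 (0.0636) or MLO-Y4 low replicate 2 (0.072). Its fold was 8.02 over all arrays and 13.6 without 2T3 low replicate 1. The Gdf5 fold was 20.0, and it was 30.5 without 2T3 low replicate 1, 10.2 with the floor at the 40th percentile and 8.01 with an offset. The Acvr1 fold was 17.8, and it was 28.5 without 2T3 low replicate 3, 9.4 with an offset and 8.95 without the 4 arrays numbered 1. An offset also gave 14.9 for Eng, against 23.1, and 6.69 for Inhba, against 13.7. Equal medians gave 68.3 for Grem1, against 34.6, 38.0 for Eng, 30.0 for Acvr1 and 13.9 for Tgfbr3. With only the 6 low-density arrays in the fit, Acvr1 (0.0989) and Tgfbr3 (0.119) did not pass. Without the 4 arrays numbered 1, Acvr1 (0.115) and Inhba (0.0988, 9.53-fold) no longer passed.

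At the denser state, MLO-Y4 high over 2T3 C0, 4 of the 50 genes were higher, against 2.31% of all spots, and 0 were lower, against 1.05%. Gdf5 was among them (log2 4.75, SE 0.43, limma adjusted p = 0.000244). It exceeded the limit in 0 of 3 2T3 C0 arrays, and its MLO-Y4 high mean was 17.6-fold over the limits of those arrays. This figure holds only for quantile normalization with the floor at 6.08. Eng differed by 5.44 on the log2 scale (SE 0.71, limma adjusted p = 0.00235). Grem1 differed by 5.71 (SE 0.99, limma adjusted p = 0.0111), and Inhba by 3.57 (SE 0.63, limma adjusted p = 0.0122). Tgfbr3 (log2 2.16, adjusted p = 0.0871) and Smad3 (log2 2.89, adjusted p = 0.0743) did not pass. Same-numbered arrays of these groups varied together, and with the array number as a block both passed, at 0.0314 for Tgfbr3 and 0.0468 for Smad3. The groups did not overlap, with MLO-Y4 high above, for 9 genes, against 8.65% of spots, and with it below for 2, against 7.95%.

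Single arrays weighed on the sizes at this state. The Grem1 fold was 52.3 over all arrays, 19.5 without 2T3 C0 replicate 1 and 110 without 2T3 C0 replicate 3, and its call was lost without MLO-Y4 high replicate 1 (adjusted p = 0.0517). With only these 6 arrays in the fit, Gdf5 alone passed, and adjusted p was 0.0607 for Eng, 0.0907 for Inhba and 0.146 for Grem1. The Eng fold was 43.3, 24.1 without 2T3 C0 replicate 1 and 70.9 without 2T3 C0 replicate 2. The Inhba call was lost without 2T3 C0 replicate 1 (0.0526) or 2T3 C0 replicate 3 (0.0548). Without the 4 arrays numbered 1, Grem1 (14.9-fold, 0.0326) and Gdf5 (0.0228) passed, and Eng (22.0-fold, 0.0536) and Inhba (7.85-fold, 0.132) did not. The fitted Gdf5 fold was 27.0, and it was 46.5 with equal medians, 11.7 with the floor at the 40th percentile and 10.6 with an offset. Equal medians gave 102 for Grem1, 73.8 for Eng and 18.4 for Inhba. An offset gave 22.8 for Eng and 5.04 for Inhba, and the higher floor 6.74 for Inhba, whose fold was 11.9.

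The comparison of culture states within each line asked which pathway genes differ between sparse and dense cells. None of the 50 genes passed in 2T3, in MLO-Y4 or in the difference between the 2 effects, and 0.00% of all spots passed in each. In 2T3 C0 over 2T3 low, 2 genes had an unadjusted limma p under 0.05, against 5.29% of all spots. Acvr1 averaged 87.7 on 2T3 C0 and 14.4 on 2T3 low, a log2 difference of 2.61 (SE 0.69, limma unadjusted p = 0.00359, adjusted 0.821). Id2 averaged 45.2 on 2T3 C0 and 8.71 on 2T3 low, a log2 difference of 2.38 (SE 0.83, limma unadjusted p = 0.0164, adjusted 0.929). For both, the 2T3 C0 arrays lay above the 2T3 low arrays, which were near the limit. The 2T3 groups did not overlap for 4 genes with 2T3 C0 above (Acvr1, Id2, Tgfb2 and Chrd), against 4.87% of spots, and for 3 with it below (Smad7, Ltbp3 and Nog), against 4.17%. Smad7 averaged 475 in 2T3 C0 and 1483 in 2T3 low (log2 -1.64, SE 0.75, limma adjusted p = 0.929).

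In MLO-Y4 high over MLO-Y4 low, 2 genes had an unadjusted limma p under 0.05, against 2.31% of all spots. Both were below the limit on all 6 MLO-Y4 arrays. Inhbc had 16.2, 7.58 and 16.3 on MLO-Y4 high and 6.08 on all 3 MLO-Y4 low arrays (log2 1.05, limma unadjusted p = 0.0265). Tgfbr1 had 6.08 on all 3 MLO-Y4 high arrays and 14.2, 11.3 and 11.5 on MLO-Y4 low (log2 -1.02, limma unadjusted p = 0.0442). In 2T3, Inhbc ran from 6.08 to 14.1 and Tgfbr1 from 6.08 to 19.8. The differences lie within the background of the arrays and have no interpretable fold. Among genes above the limit, Ltbp2 averaged 28.1 on MLO-Y4 high and 73.0 on MLO-Y4 low (log2 -1.37, SE 0.78). Inhba averaged 94.9 on MLO-Y4 high and 185 on MLO-Y4 low (log2 -0.96, SE 0.63). The limma adjusted p was 1.0 for all 50 genes. The groups did not overlap for 2 genes with MLO-Y4 high above (Inhbc and Smad3), against 2.41% of spots, and for 1 with it below (Tgfbr1), against 2.11%.

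**Figure D4:**
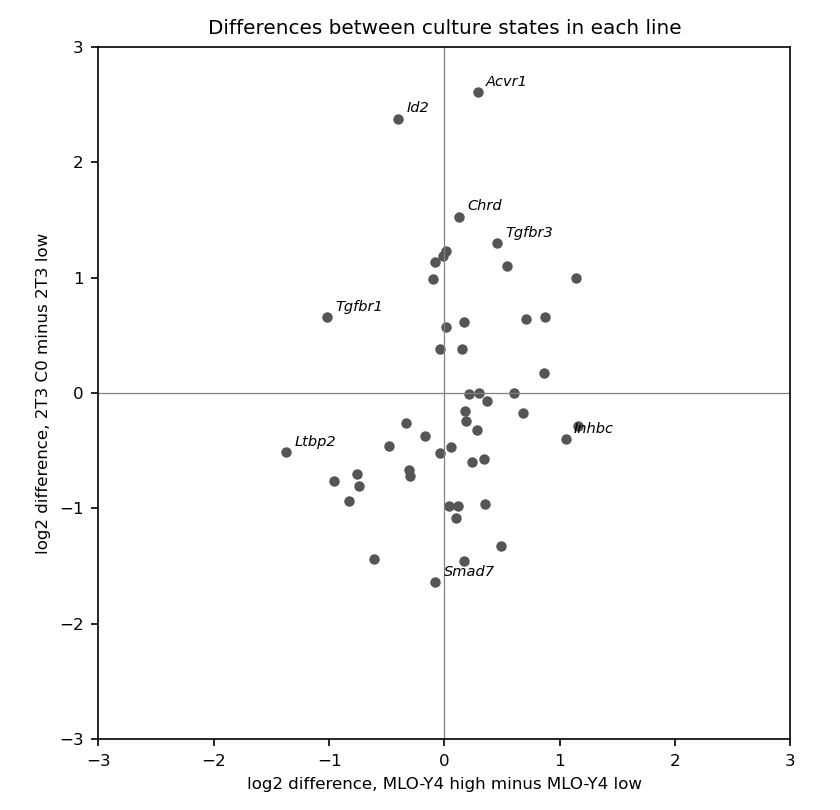
Log2 difference between culture states for the 50 genes, MLO-Y4 high minus MLO-Y4 low (x axis) against 2T3 C0 minus 2T3 low (y axis), 3 arrays a group. Acvr1 and Id2 stand at 2.61 and 2.38 on the 2T3 axis and at 0.29 and -0.40 on the MLO-Y4 axis, and no gene passed the adjusted threshold on either axis.

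The difference between the density effects, MLO-Y4 high over low minus 2T3 C0 over low, was tested as an interaction. Unadjusted limma p was under 0.05 for 4 of the 50 genes, against 2.88% of spots, and the limma adjusted p was 1.0 for each. They were Id2 (-2.77, SE 1.17), Acvr1 (-2.32, SE 0.98), Tgfbr1 (-1.68, SE 0.63) and Inhbc (1.46, SE 0.57). The median log2 difference of the 50 genes was -0.25 for 2T3 C0 over low, 0.12 for MLO-Y4 high over low and 0.22 for the interaction, against 0.0 for all spots in each.

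The arrays numbered 1 set several of the genes apart from their groups. Inhbb, Nog, Smad7 and Tgfb3 lay more than 1 log2 unit below both other arrays in MLO-Y4 high, MLO-Y4 low and 2T3 C0. This holds for 4 of 50 genes and for 314 of 5030 spots (6.24%), and 48 spots (0.954%), none of them a pathway gene, lay as far above. None of the 4 genes lay that far below on 2T3 low replicate 1, although Smad7 was lowest there within 2T3 low (866 against 2649 and 1421). Chrd and Acvr2b showed the same drop in the MLO-Y4 groups but not in 2T3 C0, and Chrd was also low on 2T3 low replicate 1. Nog, as an example, had 30.8 against 283 and 606 within MLO-Y4 high. These 6 genes, apart from Smad7, were singled out after their values were seen. Without the 4 arrays numbered 1, the line comparison had 7 genes higher (Grem1, Eng, Gdf5, Smad3, Inhba, Tgfbr3 and Chrd) and 0 lower. Over all spots that fit gave 250 higher and 168 lower. Gdf5, Eng, Inhba, Grem1, Tgfbr3 and Smad3 passed there and in each of the 12 fits that left out 1 array.

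**Figure D5:**
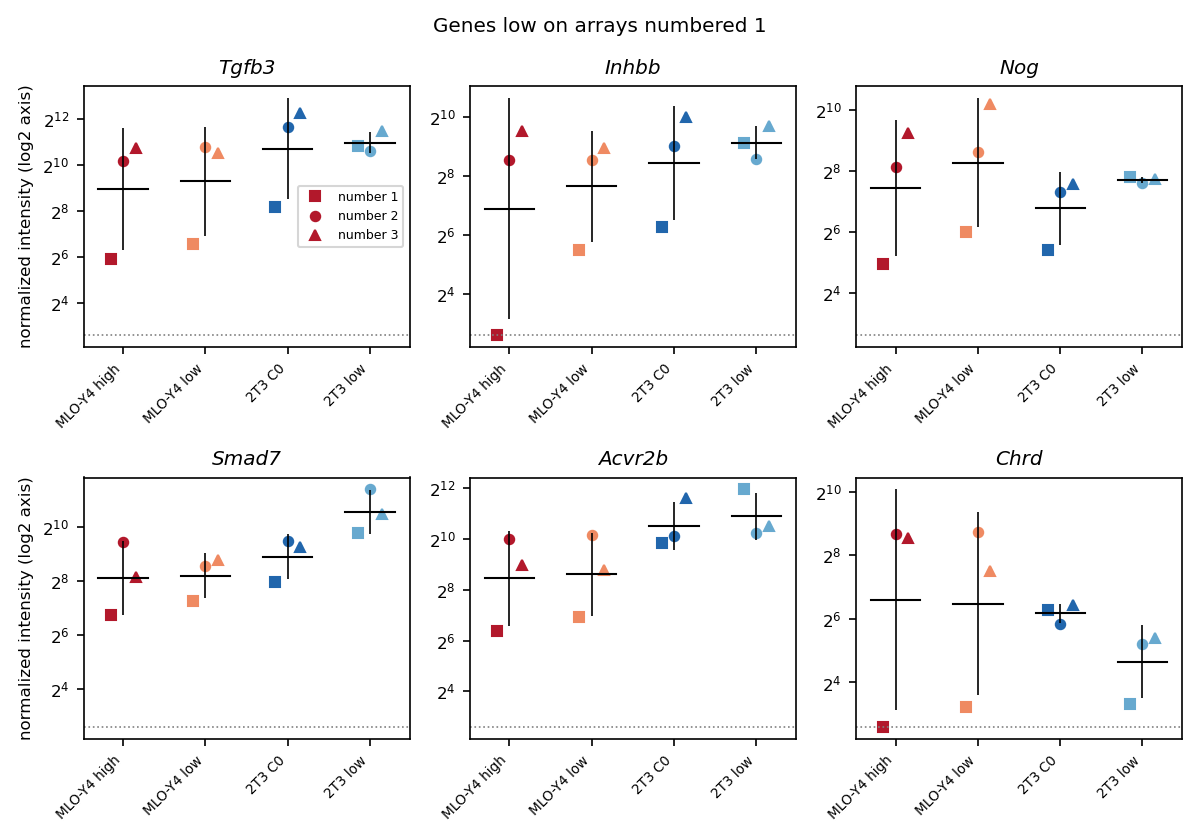
Normalized intensity (log2 axis) of Tgfb3, Inhbb, Nog, Smad7, Acvr2b and Chrd in MLO-Y4 high, MLO-Y4 low, 2T3 C0 and 2T3 low. Points are arrays shaped by their number, horizontal lines are geometric means, vertical bars are 1 SD of log2 values (n = 3), and the dotted line is the floor. Squares, the arrays numbered 1, lie below the rest in both MLO-Y4 groups for all 6 genes.

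Other genes of the pathway were taken from a list of 76 (matrix activators, proteases, corepressors, Smad partners and targets), of which 42 were measured. This list was chosen with earlier results of these data known. It shares Dlx3, Dlx5 and Msx2 with the osteoblast markers, so the Msx2 call below is the one already counted there. In the line comparison 6 of the 42 were higher in MLO-Y4, against 5.83% of all spots, and 1 was lower, against 3.48%. Of these 2 shares, the lower one was near its background. The median log2 difference was 0.37, against -0.03 for all spots. Thbs1, which encodes thrombospondin-1, an activator of latent TGF-beta, measured 1218 in MLO-Y4 and 134 in 2T3 (means of 6 arrays, log2 3.18, SE 0.42, limma adjusted p = 0.0011). Thbs2, a related matrix gene, averaged 159 in MLO-Y4 and 14.3 in 2T3 (log2 3.47, SE 0.59, limma adjusted p = 0.0048). Furin, the protease that cleaves TGF-beta and BMP precursors, averaged 361 in MLO-Y4 and 45.1 in 2T3 (log2 3.00, SE 0.58, limma adjusted p = 0.00927). The TGF-beta-responsive gene Tsc22d1 (log2 3.50), the Smad corepressor gene Tgif1 (log2 1.67) and the BMP-Smad inhibitor gene Tob1 (log2 1.59) were the other 3. Msx2, a homeobox target of BMPs, was lower, at 44.7 in MLO-Y4 and 493 in 2T3 (log2 -3.46, SE 0.68, limma adjusted p = 0.00998). Ccn2, a TGF-beta target, averaged 727 in MLO-Y4 and 321 in 2T3 and did not pass (log2 1.18, SE 0.41, limma adjusted p = 0.123). At low density Thbs1, Thbs2, Tgif1 and Tsc22d1 passed, 4 higher, against 2.86% of all spots, and 0 lower, against 1.07%. At the denser state Thbs1, Tob1 and Furin passed, 3 higher, against 2.31%, and 0 lower, against 1.05%. Between culture states 0 of the 42 passed in either line.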

How the data were processed

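Total RNA of 2 mouse cell lines was hybridised to 12 single-colour arrays of 5030 spots, grouped by the labels. The deposited values are linear intensities per spot, integers between -23 and 53055, as the values themselves show, and those below 0 imply a subtracted background. The sources used here name no image software, background method or build. A platform annotation table listed 4638 spots, 4633 with 1 symbol. Symbols of 4624 were updated through Entrez identifiers. The pathway genes, lists and tests were chosen with earlier results of these data known.

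Arrays were quantile normalized with limma 3.58.1 in R 4.3.3, because array medians lie near background, floored at the 25th percentile (6.08) and taken to log2. Fold changes of genes near the floor depend on where the floor is set. Group means were fitted over all 12 arrays (lmFit, 8 residual degrees of freedom, eBayes), and 6 comparisons were tested across all 5030 spots with Benjamini-Hochberg adjustment at 0.05. The detection limit rule was chosen after the data were examined. Where no array of a group exceeded it, the brighter mean over those limits is given, which depends on the normalization and floor. Genes given with every array value were those past the threshold in any comparison, Grem1, Inhba, Eng, Tgfbr3 and Bmp2, the 2 genes of each role with the smallest p between the lines, and any gene past unadjusted p 0.05 between culture states. Bmp4, Tgfb3, Inhbb, Nog, Chrd and Acvr2b were added after their values were seen. With 3 arrays a group, precision is limited. The script was tested on simulated data with independent errors on each array. Those data held no effect of array number, so they cannot show how the fit handles such an effect.

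Alternatives changed the scaling, floor, spot filter, arrays in the fit, prior and replicate block. Leaving out the 4 arrays numbered 1, removing a trend over the array surface (loess span 0.3) and blocking by number within a line were added after seeing the data. To check for pairing, deviations from group means were correlated between arrays of the same number. It was 0.625, 0.475 and 0.505 between MLO-Y4 high and low and 0.526, 0.311 and 0.368 between MLO-Y4 high and 2T3 C0, and was taken as pairing. Between 2T3 C0 and 2T3 low it was 0.0388, 0.0645 and 0.152, and between MLO-Y4 low and 2T3 low 0.00284, -0.111 and 0.131, and was not.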

Additional observations from a re-analysis of the deposited data

How the results depend on the processing

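In the line comparison 11 of the 50 genes passed, between 8 and 10 when 1 array was left out, 7 without the 4 arrays numbered 1, and from 8 to 13 under the other alternatives. Over all spots, 293 were higher and 175 lower, and without the 4 arrays numbered 1 these were 250 and 168. At low density 6 passed, between 4 and 7 when 1 array was left out. In MLO-Y4 high over 2T3 C0, 4 passed, between 3 and 6 when 1 array was left out, 7 with an offset in place of a floor, 1 (Gdf5) with only the 6 arrays compared and 2 without the arrays numbered 1. All spots gave 116 higher and 53 lower there, 131 and 56 with the offset, and 77 and 37 without the arrays numbered 1. The culture-state comparisons gave 0 of the 50 genes under each alternative run. No called gene changed sign. With the array number as a replicate block, 11 passed between the lines (Smad7 entered at log2 -1.57, adjusted p = 0.00693, and Id3 left at 0.053), 8 at low density and 6 at the denser state. The shared block also covered 2T3 low, whose arrays were not taken as paired by number. Blocking within a line gave 13, 8 and 6. That fit takes the variation between array numbers within a line out of the error, so its tests between lines can pass too readily. Over all spots the line comparison gave 360 higher and 224 lower with the block, and 395 and 267 with blocking within a line. The median log2 difference of the genes between the lines was 0.19, and it was 0.62 over genes above the limit in a whole group and -0.25 with detected-spot scaling. Over the same filtered genes it was 0.79 at low density, against 0.05, and 0.63 at the denser state, against 0.22. This filter kept Gdf5, Inhba, Ltbp2 and Bmpr1b through MLO-Y4 groups alone. It kept Bmp7, Bmp8a, Inha, Inhbb, Chrd, Smad5, Tgfb2 and Id2 through 2T3 groups alone. The filtered medians therefore rest partly on the levels they compare and are no evidence of a line difference. All spots moved too: between the lines their median was -0.03, -0.19 over the filtered spots and -0.41 with detected-spot scaling. Over the filtered spots it was -0.08 at low density and -0.18 at the denser state. The causes of these changes were not tested. With only the arrays compared, the calls over all spots were 83 higher and 22 lower at low density, against 144 and 54, and 70 and 23 at the denser state, against 116 and 53. Signal near background limits all statements on the 19 genes above the limit in no whole group.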
